A study of Mus musculus with 8 samples.

Results

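Hlf encodes a transcription factor of the PAR bZIP family, and it was examined together with 9 genes of the circadian clock in sorted cells of the growing mouse molar. The 10 genes are Hlf, its relatives Dbp and Tef, their antagonist Nfil3, the period genes Per1, Per2 and Per3, the nuclear receptor genes Nr1d1 and Nr1d2, and the cryptochrome gene Cry1. All 10 were found among the 56748 genes of the count table, and all 10 passed the filter on low counts. Hlf was taken because its level was higher in every library of the deleted group, so its difference is given as a description with no test. The other 9 were taken for their known role in the clock.

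Bulk RNA sequencing was made from 8 libraries of tdTomato-positive cells sorted from mandibular molars of mice at postnatal day 10, after a tamoxifen pulse at postnatal day 3. The cKO group (n = 4) is labelled Ctnnb1(-/-) and the cHet group (n = 4) Ctnnb1(+/-). The cHet group is therefore not wild type, since it also had tamoxifen and lacks 1 copy of Ctnnb1, which encodes beta-catenin. The labels call the cells CXCL12+ apical papilla cells and the tissue dental pulp, while the extraction protocol speaks of the dental follicle. The Cre driver, the deleted exons, whether animals were pooled and the hour of collection were not stated in the sources used here.

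The circadian clock is a feedback loop of transcription that runs in nearly every cell. BMAL1 and CLOCK bind E-boxes and switch on the period, cryptochrome and Nr1d genes, and the period and cryptochrome proteins then shut this activity down. The Nr1d1 and Nr1d2 proteins (REV-ERB) repress Bmal1, Npas2 and Nfil3 through ROR elements, so genes with E-boxes and genes with ROR elements peak at opposite times of day. The PAR bZIP proteins DBP, TEF and HLF carry the rhythm outwards by binding D-boxes, where NFIL3 competes with them as a repressor. In teeth, the daily growth lines of enamel and dentin are a familiar trace of a clock.

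Promoters of Hlf, Per3 and Tef, which stood higher in cKO, are shown beside those of Cry1 and Nfil3, which did not. Each window shown holds a match to a motif named below. Dbp, Nr1d1 and Nr1d2 also stood higher in cKO, and their windows, which hold no match, are not shown. RefSeq windows of build GRCm38.p6, reaching from 250 bases before to 50 bases after the annotated start, were available for 9 of the 10 members in 11 windows. Per2 had no entry. The motifs searched on both strands were the E-box (CACGTG), the D-box (TTATGTAA or TTACGTAA), the ROR element (TAGGTCA or TGGGTCA), the cyclic AMP response element or CRE (TGACGTCA) and the TCF site (CTTTGAT or CTTTGAA), and no match overlapped another. Capitals mark the matches, and each window is given on the strand of its gene. Hlf (chr11:90390868-90391167, minus strand) holds a CRE, Per3 (chr4:151044616-151044915, minus strand) holds a pair of D-boxes, and the window of Tef shown (chr15:81802423-81802722, plus strand) holds an E-box. Cry1 (chr10:85185005-85185304, minus strand) also holds an E-box, and Nfil3 (chr13:52980990-52981289, minus strand) holds a ROR element in reverse orientation.
Hlf: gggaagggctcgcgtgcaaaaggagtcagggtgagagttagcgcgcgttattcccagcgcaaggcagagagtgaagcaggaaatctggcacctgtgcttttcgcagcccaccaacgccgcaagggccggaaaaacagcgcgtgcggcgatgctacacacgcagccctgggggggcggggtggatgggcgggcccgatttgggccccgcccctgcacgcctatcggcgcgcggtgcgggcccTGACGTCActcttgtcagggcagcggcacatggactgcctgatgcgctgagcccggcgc
Per3: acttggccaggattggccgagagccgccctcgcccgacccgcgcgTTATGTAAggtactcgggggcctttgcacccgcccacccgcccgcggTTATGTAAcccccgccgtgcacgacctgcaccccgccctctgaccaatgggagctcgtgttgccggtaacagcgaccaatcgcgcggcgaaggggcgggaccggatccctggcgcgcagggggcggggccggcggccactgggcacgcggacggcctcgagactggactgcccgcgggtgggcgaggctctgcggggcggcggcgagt
Tef: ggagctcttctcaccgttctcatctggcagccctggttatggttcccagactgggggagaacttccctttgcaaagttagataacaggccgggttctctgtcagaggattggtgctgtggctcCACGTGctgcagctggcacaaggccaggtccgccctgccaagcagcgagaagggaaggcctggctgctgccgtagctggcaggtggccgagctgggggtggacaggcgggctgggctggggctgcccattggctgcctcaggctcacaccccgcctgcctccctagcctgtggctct
Cry1: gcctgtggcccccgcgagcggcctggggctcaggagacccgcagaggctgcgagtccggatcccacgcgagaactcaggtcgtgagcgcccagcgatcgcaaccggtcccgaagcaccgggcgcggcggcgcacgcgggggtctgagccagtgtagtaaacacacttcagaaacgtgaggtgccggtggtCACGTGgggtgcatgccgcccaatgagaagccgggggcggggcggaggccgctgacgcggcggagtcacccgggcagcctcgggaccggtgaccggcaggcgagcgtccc
Nfil3: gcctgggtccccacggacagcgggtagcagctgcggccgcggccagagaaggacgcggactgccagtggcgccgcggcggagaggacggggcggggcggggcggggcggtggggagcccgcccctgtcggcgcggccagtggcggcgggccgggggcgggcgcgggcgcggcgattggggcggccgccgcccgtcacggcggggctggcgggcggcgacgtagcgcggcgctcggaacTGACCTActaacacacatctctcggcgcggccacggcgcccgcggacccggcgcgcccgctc

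Counting from 0 at the start site, the CRE of Hlf lay at positions -9 to -2, and the D-boxes of Per3 at -205 to -198 and -158 to -151. The E-boxes of Tef lay at -127 to -122 in the window shown and at -138 to -133 in its other window, that of Cry1 at -60 to -55, and that of Per1 at -166 to -161 in its upstream window. None of these motifs occurred in the windows of Dbp, Nr1d1 and Nr1d2, and no TCF site occurred in any of the 11 windows. Of all 32851 windows, 7.15% hold the E-box, 1.06% a D-box of either form, 6.45% a ROR element of either form, 1.79% the CRE and 8.65% a TCF site of either form. An E-box was thus found both in Tef, whose cKO libraries all lay above the cHet libraries, and in Cry1, whose groups overlapped.

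**Figure D1:**
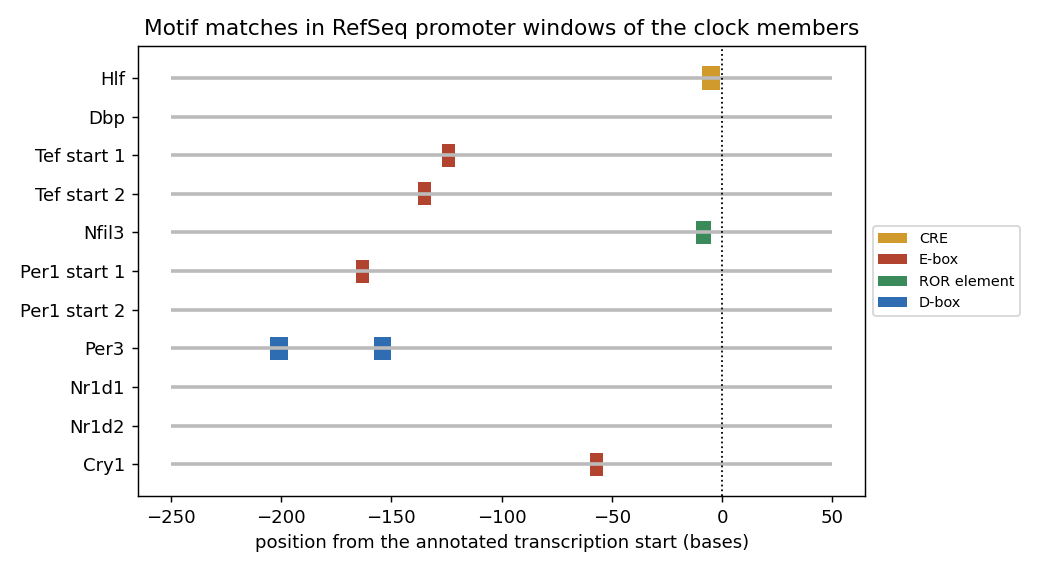
Motif matches in the 11 promoter windows of the members, with the position from the annotated start in bases on the x axis and 1 window per row. The E-box of Cry1 at -60 lies nearer to its start than those of Tef and Per1, and the D-boxes of Per3 lie at -205 and -158.

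Hlf stood higher in every cKO library than in any cHet library. Its level, in CPM (counts scaled to library size with trimmed-mean, TMM, factors), was 51.2 in cKO7, 65.3 in cKO9, 44.7 in cKO14 and 61.3 in cKO15, against 21.7 in cHet8, 18.9 in cHet11, 20.8 in cHet12 and 19.8 in cHet14. The lowest cKO library was thus above the highest cHet library by a wide margin. The means were 55.6 ± 9.40 CPM in cKO and 20.3 ± 1.23 CPM in cHet (SD, n = 4 each), a 2.74-fold higher level in cKO (log2 1.45, SE 0.15). The spread between cHet libraries was small, with a coefficient of variation of 6.08%, against 16.9% in cKO. In these bulk libraries, fewer cells of a type and less RNA per cell cannot be told apart, and this holds for every level given here.

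The relatives of Hlf stood higher in cKO too, by smaller amounts that did not pass the test. Dbp, known as the strongly cycling member of the family, had 21.9, 12.4, 22.6 and 19.9 CPM in cKO7, cKO9, cKO14 and cKO15, against 12.0, 6.66, 9.58 and 8.44 CPM in cHet8, cHet11, cHet12 and cHet14. The groups did not overlap, but cKO9 lay close to cHet8. The fold change was 2.10 (log2 1.07, SE 0.27, edgeR adjusted p = 0.0988). Tef had 199, 184, 166 and 196 CPM in the same order of cKO libraries, against 145, 126, 136 and 144 CPM in the cHet libraries. Its groups did not overlap either, with a fold change of 1.35 (log2 0.44, SE 0.098, edgeR adjusted p = 0.0793). Exons of Dbp share 539 bases with Sphk2 on the opposite strand in GENCODE M21 (GRCm38), which is 18.0% of the exon length of Dbp. The library kit does not mark strand, so reads from that stretch cannot be assigned. DESeq2 called both genes (adjusted p = 0.00162 for Dbp and 0.000114 for Tef), as did limma voom (0.0218 and 0.0479), and edgeR called Dbp without cKO9 (0.0355). Over all genes, DESeq2 called 9.46% of those it gave an adjusted p higher. For limma voom it was 1281 of 21508, and for edgeR without cKO9 816 of 22213.

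Nfil3, the repressor that competes for the same D-boxes, did not stand apart. It had 47.9, 37.7, 41.4 and 32.1 CPM in cKO7, cKO9, cKO14 and cKO15, against 45.8, 44.7, 47.9 and 35.8 CPM in cHet8, cHet11, cHet12 and cHet14. The groups overlapped through most of their range (log2 -0.13, SE 0.16, edgeR adjusted p = 0.738). The ratio of activator to repressor transcript was also set out within each library, where scaling cancels, after the values had been seen. The log2 ratio of Hlf to Nfil3 lay between 0.097 and 0.93 in cKO and between -1.25 and -0.85 in cHet. Since Hlf was taken for its higher level in cKO and Nfil3 differed little, this ratio mainly restates the difference of Hlf.

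**Figure D2:**
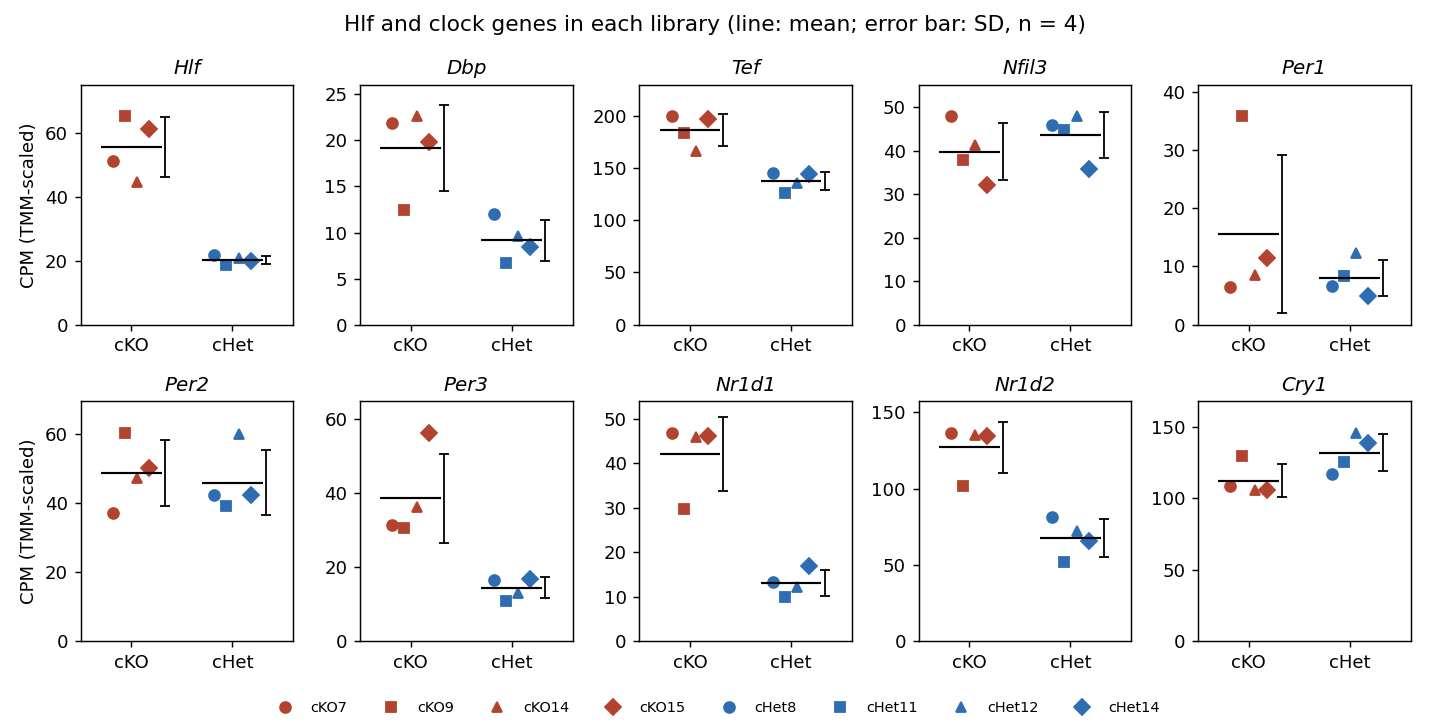
TMM-scaled CPM of the 10 genes in each library, with 1 panel per gene, cKO on the left and cHet on the right, a line at the mean and an error bar of 1 SD (n = 4 each). Hlf, Dbp, Tef, Per3, Nr1d1 and Nr1d2 have no overlap between groups, and Per1 has 1 cKO library at 35.8 CPM.

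The nuclear receptor pair of the clock rose in cKO. Nr1d1, encoding the repressor REV-ERB alpha, had 46.8, 29.6, 45.8 and 46.0 CPM in cKO7, cKO9, cKO14 and cKO15, against 13.2, 9.92, 12.1 and 16.9 CPM in cHet8, cHet11, cHet12 and cHet14. The groups were well separated, and cKO9 was the lowest cKO library. Nr1d1 rose 3.23-fold (log2 1.69, SE 0.22, edgeR adjusted p = 0.0327). Nr1d2, encoding REV-ERB beta, had 137, 102, 135 and 135 CPM in the cKO libraries in that order, against 81.3, 51.7, 72.5 and 65.7 CPM in the cHet libraries. It rose 1.87-fold (log2 0.91, SE 0.16, edgeR adjusted p = 0.0473), again with cKO9 lowest among the cKO libraries.

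Exons of Nr1d1 share 263 bases with Thra, the thyroid hormone receptor gene on the opposite strand, which is 8.55% of its exon length. Without strand, reads there cannot be told apart. Thra itself had 46.5, 89.8, 43.3 and 48.5 CPM in cKO7, cKO9, cKO14 and cKO15, against 30.6, 20.5, 34.3 and 21.6 CPM in cHet8, cHet11, cHet12 and cHet14 (log2 1.09, SE 0.28, edgeR adjusted p = 0.110). Of the cKO libraries, cKO9 was the highest for Thra and the lowest for Nr1d1.

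The 3 period genes differed from each other. Per3 had 31.4, 30.6, 36.3 and 56.3 CPM in cKO7, cKO9, cKO14 and cKO15, against 16.6, 10.98, 13.2 and 16.9 CPM in cHet8, cHet11, cHet12 and cHet14. Every cKO library was above every cHet library, and Per3 rose 2.68-fold (log2 1.42, SE 0.25, edgeR adjusted p = 0.0425). Per2, a repressor in the core of the loop, had 37.3, 60.4, 47.3 and 50.1 CPM in the cKO libraries, against 42.3, 39.1, 60.0 and 42.3 CPM in the cHet libraries. Its groups overlapped almost fully (log2 0.086, SE 0.19, edgeR adjusted p = 0.870). The log2 ratio of Per3 to Per2 within a library, chosen after the values were seen, was -0.25, -0.98, -0.38 and 0.17 in the cKO libraries, against -1.35, -1.83, -2.19 and -1.32 in the cHet libraries. The ratio did not overlap between groups.

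Per1, the period gene that responds fastest to outside signals, was dominated by 1 library. It had 6.42, 35.8, 8.56 and 11.5 CPM in cKO7, cKO9, cKO14 and cKO15, against 6.65, 8.29, 12.2 and 4.86 CPM in cHet8, cHet11, cHet12 and cHet14. Outside cKO9 the groups overlapped. The fitted log2 change was 0.96 (SE 0.57, edgeR adjusted p = 0.437), and it was 0.14 without cKO9. Immediate early genes, which cell dissociation is known to induce, stood beside this with 0 of 10 called by edgeR in either direction and a median log2 value of 0.99. Fos had 5031, 1899, 3775 and 5732 CPM in cKO7, cKO9, cKO14 and cKO15, against 1860, 864, 1739 and 1253 CPM in cHet8, cHet11, cHet12 and cHet14 (edgeR adjusted p = 0.0913). The library with the most Per1 in cKO was therefore the one with the least Fos. Of these 10 genes, 6 had an unadjusted edgeR p under 0.05 with a higher level in cKO, where 10.8% of all tested genes had. DESeq2 and limma voom each called Fos, Fosb, Jun, Junb, Egr1 and Ier2 higher. Over all genes, DESeq2 called 9.46% of those it gave an adjusted p higher, and limma voom 1281 of 21508.

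Cry1, a repressor with a late phase in the loop, had 108, 129, 106 and 106 CPM in cKO7, cKO9, cKO14 and cKO15, against 117, 125, 146 and 139 CPM in cHet8, cHet11, cHet12 and cHet14. Of the cKO libraries, cKO9 alone lay inside the cHet range. The difference did not pass (log2 -0.23, SE 0.11, edgeR adjusted p = 0.347).

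Taking the 9 genes besides Hlf, 3 were called higher in cKO (Nr1d1, Per3 and Nr1d2) and 0 lower by edgeR at an adjusted p under 0.05. Over all 21508 tested genes, 1.08% were called higher and 0.0558% lower. At an unadjusted p under 0.05, 5 of the 9 were higher and 0 lower, against 10.8% and 6.33% of all tested genes. DESeq2 called 5 of the 9 higher and 0 lower, against 9.46% and 4.82% of the genes it gave an adjusted p. The 9 genes had a median log2 change of 0.91, against -0.027 over all tested genes. In 5 of the 9 (Dbp, Tef, Per3, Nr1d1 and Nr1d2) all cKO libraries lay above all cHet libraries, and in 0 below, where 6.46% and 3.68% of all tested genes did. The fitted values were above 0 in 7 and below 0 in 2, and that of Per2 turned negative with library size alone as the scaling and without cKO9. Of these 9 genes, Dbp, Tef, Nfil3, Per1, Per2 and Cry1 did not pass the test. Repressors of the loop were called in part, with Nr1d1, Nr1d2 and Per3 called higher and Per1, Per2 and Cry1 not called. Of these repressors, only Cry1 had a fitted value below 0.

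These 3 calls lay close to the threshold. Nr1d1 was called in 8 of 16 alternative analyses, Per3 in 7 and Nr1d2 in 6. Leaving out any of cKO7, cKO14, cKO15, cHet11, cHet12 or cHet14 ended all 3 calls, with adjusted p between 0.0751 and 0.164, and leaving out cHet8 ended those of Per3 (0.0647) and Nr1d2 (0.0551). Nr1d2 also had an adjusted p of 0.0537 with relative log expression (RLE) factors. The direction was kept throughout, with log2 values between 1.33 and 1.83 for Nr1d1, between 0.96 and 1.52 for Per3 and between 0.50 and 1.03 for Nr1d2. For Hlf, which was taken for its higher level in every cKO library, the log2 value lay between 1.34 and 1.53 in all 16. This follows in part from that choice.

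**Figure D3:**
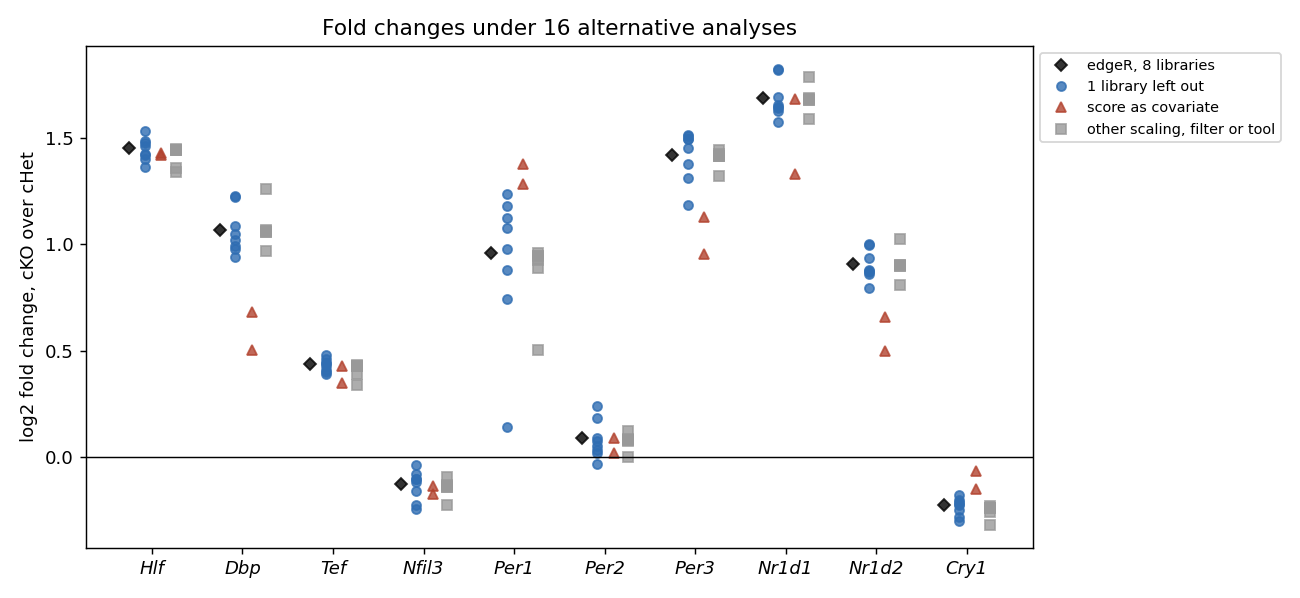
Log2 fold change of cKO over cHet (y axis) for the 10 genes (x axis) in the edgeR fit of 8 libraries and in 16 alternatives, namely 8 with 1 library left out, 2 with a cell type score as covariate and 6 with other scaling, filters or tools. Hlf, taken for its higher level in every cKO library, lies between 1.34 and 1.53. The covariates lower Dbp, Per3 and Nr1d2 most.

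The make-up of the libraries moved with the groups. Beside these results, the summed level of 12 mesenchyme markers, Cxcl12 included, ranged from 13469 to 26463 CPM in cKO and from 3404 to 11843 CPM in cHet, and 2 of the 12 (Cxcl12 and Prrx1) were called higher (1.08% of all tested genes). The list also held 2 genes with values below 0, Dcn (log2 -1.04, SE 0.42) and Lum (log2 -0.66, SE 0.48), both matrix proteoglycans, and neither was called. Cxcl12, the marker named in the labels, ranged from 491 to 1001 CPM in cKO and from 66.4 to 268 CPM in cHet. Olfactory neuron transcripts, which the labelled tissue should lack, were present in every library. Their 8 markers summed to between 5373 and 6660 CPM in cKO and between 6074 and 11052 CPM in cHet. All 8 had fitted values below 0 (median log2 -0.42), with 0 of 8 called by edgeR and 0.235 the lowest adjusted p. At an unadjusted edgeR p under 0.05, 2 were lower in cKO (6.33% of all tested genes). Olfactory support cell and gland markers summed to between 727 and 6848 CPM in cKO and between 2180 and 2929 CPM in cHet. Dental epithelium markers summed to between 4640 and 8679 CPM in cKO and between 2564 and 11722 CPM in cHet. Blood markers summed to between 58.2 and 331 CPM in cKO and between 77.9 and 8532 CPM in cHet, where cHet12 gave the 8532 and cHet8 was next at 827 CPM. The 7 tested blood markers all had fitted values below 0, and none was called by edgeR. Endothelial markers summed to at most 26.9 CPM in cKO and 25.3 CPM in cHet, erythroid ones to at most 86.7 CPM in cKO and 85.6 CPM in cHet, and glial ones to at most 217 CPM in cKO and 206 CPM in cHet. The part of these differences in the results was not tested beyond fits with 2 marker scores as covariates. Ctnnb1 counted over the whole gene stood at 277 ± 39.2 CPM in cKO and 257 ± 40.2 CPM in cHet (SD, n = 4 each), which cannot check the labels because exons outside the deletion are included. Total counts lay between 44444033 and 47598824 in cKO and between 45759087 and 50051392 in cHet.

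Fits with a score of such markers as covariate give how the members stood at equal score. With the mean log2 level of the mesenchyme markers other than Cxcl12 as covariate, the log2 value was 1.42 for Hlf, 1.33 for Nr1d1, 0.96 for Per3, 0.50 for Nr1d2, 0.50 for Dbp and 0.35 for Tef. With the olfactory neuron score it was 1.43 for Hlf, 1.69 for Nr1d1, 1.13 for Per3, 0.66 for Nr1d2, 0.68 for Dbp and 0.43 for Tef. None of the 9 genes besides Hlf was called by edgeR in either fit, in which 10 and 1 genes of the whole table were called higher and 1699 and 1375 had an unadjusted p under 0.05. The mesenchyme score lay between 8.08 and 9.09 in cKO and between 6.49 and 8.24 in cHet, so the groups barely share a range in which they could be compared.

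Library cKO9 differed from the other cKO libraries within the clock. It was the lowest of the 4 for Dbp, Per3, Nr1d1 and Nr1d2 and the highest for Hlf, Per1, Per2 and Cry1. It also had the lowest mesenchyme score of the cKO libraries (8.08) and the highest olfactory neuron score (8.91). Within cKO, Hlf was thus ordered differently from Nr1d1 and Dbp, although all 3 stood higher there than in cHet. Among the cHet libraries, cHet11 was the lowest for 7 of the 10 members and had the lowest mesenchyme score (6.49).

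Bmal1, listed under its older symbol Arntl, encodes the activator that the REV-ERB proteins repress. It had 23.6, 25.2, 25.4 and 22.2 CPM in cKO7, cKO9, cKO14 and cKO15, against 30.6, 19.6, 12.9 and 34.9 CPM in cHet8, cHet11, cHet12 and cHet14. The cKO libraries all lay inside the wide cHet range (log2 -0.025, SE 0.29, edgeR adjusted p = 0.979). The log2 ratio of Nr1d1 to Bmal1, chosen after the values were seen, was 0.99, 0.23, 0.85 and 1.05 in the cKO libraries. In the cHet libraries it was -1.21, -0.99, -0.083 and -1.05, and it did not overlap between groups. The ratio of Dbp to Ciart, a repressor gene of the loop, did overlap. It lay between 1.93 and 2.91 in cKO and between 1.10 and 2.15 in cHet. How often such ratios part the groups over all genes was not computed.

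Of 16 other clock genes, namely 4 activators, 6 further loop factors and 6 kinases and ubiquitin ligase components that act on clock proteins, 0 were called by edgeR in either direction, while 4 were higher in cKO and 0 lower at an unadjusted p under 0.05 (10.8% and 6.33% of all tested genes). DESeq2 called Clock (adjusted p = 0.0163) and Btrc (0.00103) higher, where it called 9.46% of the genes it gave an adjusted p. Their median log2 value was 0.21. Clock, the partner of BMAL1, had a log2 value of 0.53 (SE 0.16, edgeR adjusted p = 0.149), Npas2, which can stand in for it, 0.61 (SE 0.23, adjusted p = 0.238), and Bmal2 0.36 (SE 0.25, adjusted p = 0.531). Rora, a receptor that activates through ROR elements, had 41.8 ± 12.1 CPM in cKO and 21.5 ± 10.99 CPM in cHet (edgeR adjusted p = 0.240). Its relative Rorb had a log2 value of 0.73 (SE 1.07), and the E-box repressor genes Bhlhe40 and Bhlhe41 had 0.38 (SE 0.32) and -0.53 (SE 0.24). Cry2 and Ciart, both repressors of the loop, stood at log2 0.034 (SE 0.12) and 0.041 (SE 0.28), values close to 0.

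Among the 6 genes that act on clock proteins, Btrc was the one whose groups did not overlap. All its cKO libraries lay above all cHet libraries, as for 6.46% of all tested genes. Btrc encodes the ligase subunit beta-TrCP, which marks both period proteins and beta-catenin for breakdown. It stood at 61.0 ± 9.13 CPM in cKO and 40.3 ± 4.08 CPM in cHet (SD, n = 4 each, log2 0.60, SE 0.14, edgeR adjusted p = 0.0862). Btrc passed edgeR without cKO9 (0.0283), a fit that called 816 genes higher, against 232 in the full fit. Gsk3b, a kinase shared by the clock and the beta-catenin pathway, had a log2 value of -0.30 (SE 0.21), Csnk1d, a kinase of the period proteins, 0.056 (SE 0.11), and Fbxl21, a ligase subunit for cryptochromes, 0.44 (SE 0.55).

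**Figure D4:**
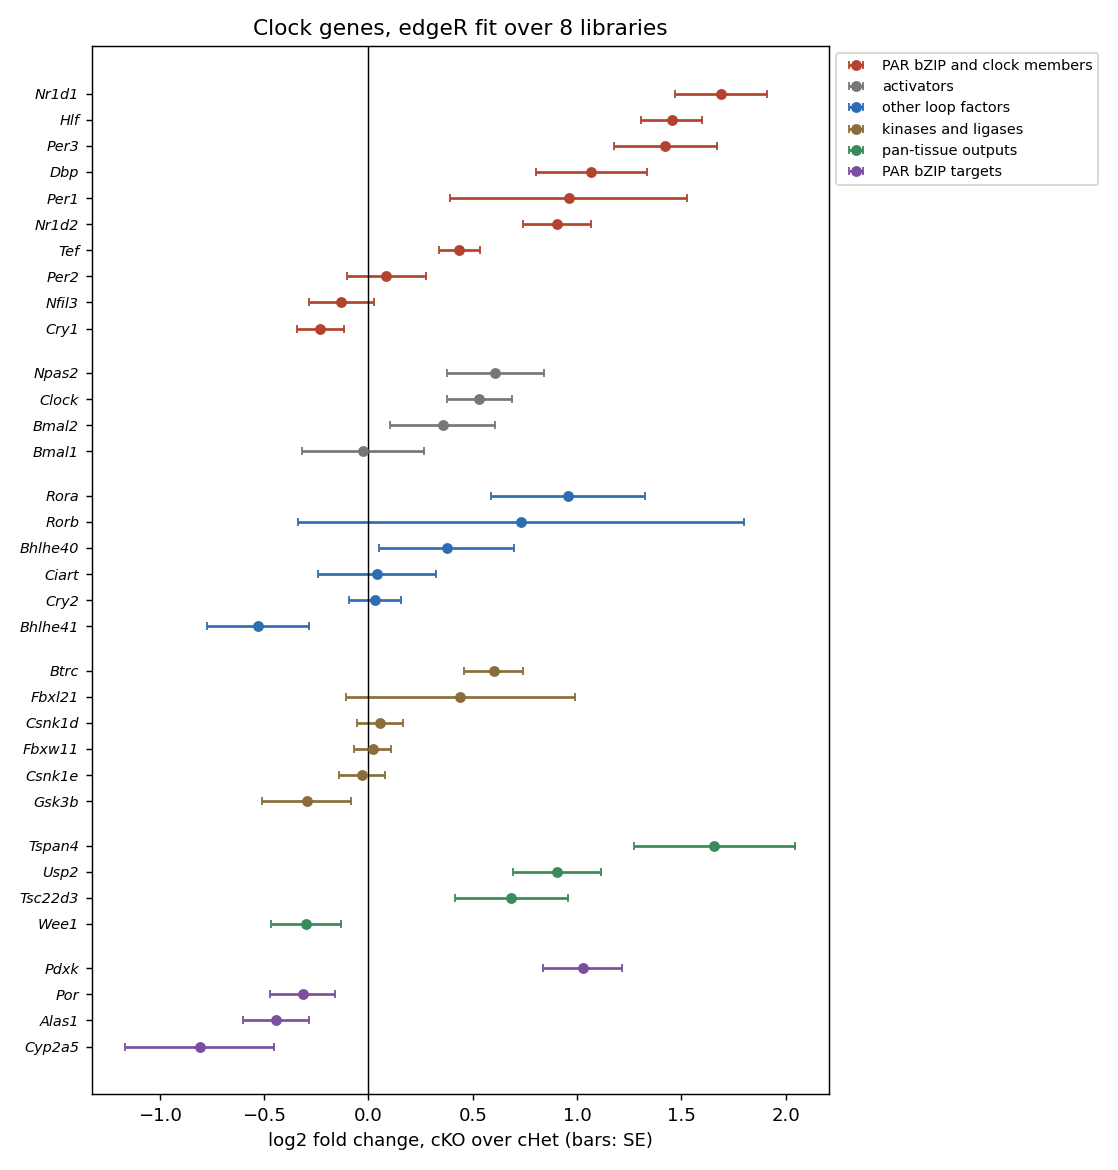
Log2 fold change of cKO over cHet (x axis, bars of 1 SE) for the tested clock genes, grouped by role and ordered by value within each group. Nr1d1 (1.69), Hlf (1.45) and Per3 (1.42) lead the members, while Bmal1 (-0.025) and Cry2 (0.034) lie at 0.

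Sorting the genes by the phase in which they normally peak shows where the higher levels fell. Of 9 genes driven through E-boxes and D-boxes besides Hlf, 3 were called higher and 0 lower by edgeR, with a median log2 value of 0.91. Over all tested genes, 1.08% were called higher and 0.0558% lower, with a median of -0.027. Of 5 genes placed in the class of ROR elements, in which Cry1 is known to answer to E-boxes as well, 0 were called in either direction, with a median of -0.025. At an unadjusted edgeR p under 0.05, 2 of these 5 were higher in cKO (Clock and Npas2) and 0 lower. Of all tested genes, 10.8% and 6.33% were. For Npas2, all cKO libraries lay above all cHet libraries, as for 6.46% of all tested genes. DESeq2 called Clock higher. All 9 members besides Hlf fall in these classes, so the counts repeat those above in part, and the difference between the classes was not tested.

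**Figure D5:**
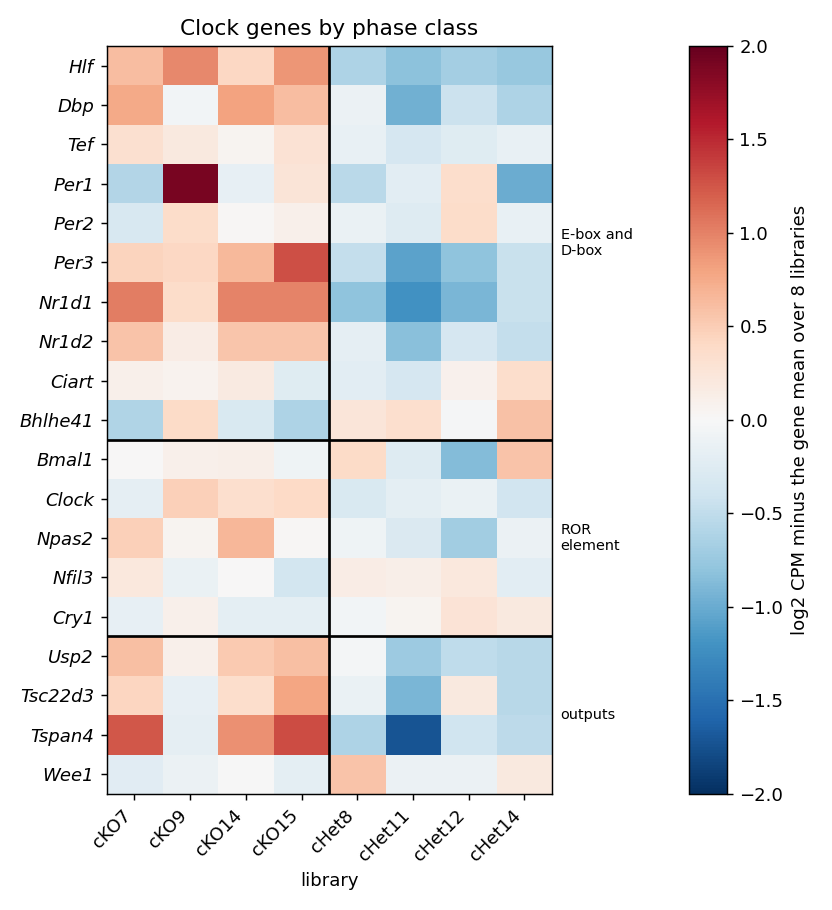
Log2 CPM minus the mean of the gene over the 8 libraries, with cKO libraries on the left, cHet on the right, and genes grouped as E-box and D-box class, ROR element class and outputs. Nr1d1, Per3, Hlf and Nr1d2 are above their mean in all cKO libraries, and Bmal1 is not.

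Genes that cycle in most mouse organs were read next. Usp2, a deubiquitinase, had 24.4, 17.1, 23.1 and 24.2 CPM in cKO7, cKO9, cKO14 and cKO15, against 15.7, 9.65, 11.2 and 10.9 CPM in cHet8, cHet11, cHet12 and cHet14 (log2 0.91, SE 0.21, edgeR adjusted p = 0.0867). Tspan4, a tetraspanin, had 48.4, 18.1, 38.8 and 50.7 CPM in the cKO libraries, against 13.3, 6.20, 15.7 and 14.2 CPM in the cHet libraries (log2 1.66, SE 0.39, edgeR adjusted p = 0.0860). Neither gene had overlapping groups, where all cKO libraries lay above all cHet libraries for 6.46% of all tested genes. Library cKO9 was again the lowest cKO library for both. Tsc22d3, also a glucocorticoid response gene, had a log2 value of 0.69 (SE 0.27, adjusted p = 0.249) and Wee1, a cell cycle kinase, -0.30 (SE 0.17, adjusted p = 0.416). None of the 4 was called by edgeR, 3 were higher at an unadjusted p under 0.05 (10.8% of all tested genes), and DESeq2 called Usp2 (0.000582) and Tspan4 (0.000356) higher (9.46% of the genes it gave an adjusted p).

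Known targets of the PAR bZIP proteins in other organs gave values of both signs. Pdxk, pyridoxal kinase, which depends on these factors in mouse brain and liver, had 30.8, 23.7, 25.7 and 32.2 CPM in cKO7, cKO9, cKO14 and cKO15, against 16.3, 11.8, 11.3 and 15.8 CPM in cHet8, cHet11, cHet12 and cHet14. The groups did not overlap, with cKO above as for 6.46% of all tested genes. Pdxk rose 2.04-fold (log2 1.03, SE 0.19, edgeR adjusted p = 0.0497). It was the 1 called higher of 4 tested targets, with 0 lower, against 1.08% and 0.0558% of all tested genes. The call was lost in 12 of 16 alternatives, among them each omission of a library other than cKO9, with log2 values of 0.78 with the mesenchyme score and 0.92 with the olfactory score. The other tested targets are best known from liver. Por, which supplies electrons to cytochromes P450, had a log2 value of -0.32 (SE 0.15), Alas1, of haem synthesis, -0.44 (SE 0.16), and Cyp2a5, a P450, -0.81 (SE 0.36), with edgeR adjusted p of 0.343, 0.214 and 0.295. All cKO libraries lay below all cHet libraries for Alas1, as for 3.68% of all tested genes, with 83.8 to 119 CPM in cKO and 125 to 164 CPM in cHet. DESeq2 called Alas1 lower (adjusted p = 0.0337), and Cyp2a5 was called lower by limma voom (0.0418) and by edgeR without cKO9 (0.0328). Over all genes, DESeq2 called 4.82% of those it gave an adjusted p lower. For limma voom it was 271 of 21508, and for edgeR without cKO9 144 of 22213. Por changed sign with the olfactory score as covariate. Cyp2a5 had 184, 399.9, 152 and 146 CPM in the cKO libraries, in the order above. In the cHet libraries it had 265, 469, 336 and 477 CPM. Cyp2g1, an olfactory support marker, had 202, 399, 99.9 and 135 CPM in cKO and 312, 470, 435 and 611 CPM in cHet. The part of olfactory cells in the values of Por and Cyp2a5 was not tested. Nr1i3 and Cyp7a1 did not pass the filter on low counts.

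Glucocorticoids also drive Per1, and 9 of their response genes gave 0 edgeR calls in either direction, with 5 higher and 1 lower at an unadjusted p under 0.05 (10.8% and 6.33% of all tested genes) and a median log2 value of 0.63. Sgk1, a kinase, had 207 ± 63.9 CPM in cKO and 115 ± 8.98 CPM in cHet (edgeR adjusted p = 0.0899), and Errfi1, an inhibitor of growth factor receptors, 142 ± 34.5 CPM in cKO and 76.4 ± 13.0 CPM in cHet (adjusted p = 0.0805). Cebpd stood at log2 1.504 (SE 0.43, adjusted p = 0.135), Klf9 at 0.63 (SE 0.24) and Fkbp5, a sensitive response gene, at -0.27 (SE 0.22). DESeq2 called Sgk1, Errfi1 and Cebpd higher (9.46% of the genes it gave an adjusted p). The list thus held values of both signs.

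The genes whose level over the 8 libraries was most like that of Hlf were E2f3 (Pearson r = 0.989), Nog (0.978), Zfhx4 (0.976), Parvb (0.974) and Kif26b (0.971), out of 12465 tested genes averaging 5 CPM or more. These values describe profiles that share the difference between groups, and carry no test. After the group means had been subtracted, the closest were Slc38a9 (0.944), Sod2 (0.937), Vkorc1l1 (0.929), Spata1 (0.928) and the olfactory receptor gene Olfr1121 (0.926), whose reads may be shared with its family. No gene stood in both lists, and none was a clock gene of the lists used here. For the other 9 members, r with Hlf over the 8 libraries ran from -0.61 (Cry1) to 0.94 (Tef). After subtraction of the group means it ran from -0.39 (Nfil3) to 0.66 (Per1). Nr1d1, for example, had 0.90 before and -0.37 after.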

How the data were processed

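The values are whole-number counts per Ensembl gene as the authors deposited them, not normalized. Per the submitters' processing notes, Trim Galore and STAR were used with build GRCm39 (mm39). The counter, its annotation and all tool versions: not given in the sources used here. Column names carry a group and a number that matches no sample title, so columns were assigned to groups only, and whether libraries are separate animals is not stated, so p-values measure the spread between libraries, which may be technical.

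Identifiers were matched to symbols without their version suffix (52073 of 56748), the identifier with the largest count standing for a symbol. The comparison used edgeR 4.0.16 under R 4.3.3 (TMM factors, default filter by group, 21508 genes tested, quasi-likelihood F test, Benjamini-Hochberg adjustment over all tested genes, called under 0.05, two-sided). SE is the size of the log2 change divided by the square root of F, an approximation. Alternatives were RLE factors, library size alone, DESeq2 1.42.0, limma 3.58.1 voom with quality weights, no filter, 1 CPM in 4 libraries, 2 marker score covariates (log2 CPM with a prior count of 2) and omission of each library. The fit was tested on simulated data.

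The members and lists were chosen with earlier results of these data known. Members of the lists that are not reported here were left out of their counts and medians, but not of the fit. Named genes are the members, those with the 4 smallest p in each list, and the 5 nearest to Hlf in profile over 8 libraries, before and after subtracting group means, with Ctnnb1 and Cxcl12 as checks. Ciart, Cry2, Fkbp5, Thra, Prrx1, Dcn, Lum, Nr1i3, Cyp7a1, Junb, Ier2 and Cyp2g1 were named after their values were seen. Csnk1e, Fbxw11, Nr4a1, Dusp1, Btg2 and Mt2 were named because their sign changed in an alternative. Gene overlaps and promoter windows come from GENCODE M21 and RefSeq on GRCm38, used for neighbours and sequence only, not for the counts. Common biological coefficient of variation was 0.553.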

Additional observations from a re-analysis of the deposited data

Results flagged for a closer look

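In groups of 4 libraries, 1 library can lie far from the other 3, measured as its gap to the nearest one over the whole range, and compared with Dixon's limit. Of 110 gene and group combinations read, 8 passed, and chance alone gives about 1 in 20. In cKO9, Nr1d1 was low at 29.6 CPM, against 45.8 to 46.8 CPM in the other cKO libraries, and Nr1d2 was low at 102 CPM, against 135 to 137 CPM. Also in cKO9, Cry1 was high at 129 CPM (106 to 108 CPM in the others), Cyp2a5 at 399.9 CPM (146 to 184 CPM) and Thra at 89.8 CPM (43.3 to 48.5 CPM). Per1 in cKO9 fell just short of the limit. In cHet12, Per2 was high at 60.0 CPM, against 39.1 to 42.3 CPM. In cHet14, Bhlhe40 was high at 68.4 CPM (36.2 to 40.5 CPM) and Alas1 at 164 CPM (125 to 131 CPM).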

How the results depend on the processing

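Hlf had log2 values between 1.34 and 1.53 in all 16 alternatives. It was taken for being higher in every cKO library, so its kept direction is a description and no check. The counts of calls did not hold: over all genes 232 were higher and 12 lower by edgeR, against 1709 and 871 by DESeq2, 1281 and 271 by limma voom, 10 and 4 with the mesenchyme covariate, 1 and 0 with the olfactory covariate, 5 lower without a filter, and between 0 and 816 higher and 0 and 144 lower with 1 library left out. Without cKO14, cHet12 or cHet14 edgeR called 0 genes in either direction, with 2934, 3352 and 3022 at an unadjusted p under 0.05. Of the 9 genes besides Hlf, 3 were called higher, against 5 by DESeq2 and by limma voom, 0 with either covariate (0 higher, 0 lower), and between 0 and 4 with 1 library left out. The largest number came without cKO9, where Dbp joined the 3. The cause of these changes was not tested. Over 51 genes of the lists and 814 values, 688 kept direction and side of the threshold, 39 lost a call, 44 gained one and 43 changed sign, none of the last in a gene called by edgeR in the full fit.

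Apart from the ranges, these values have the opposite sign to the fit of all 8 libraries. With library size alone, log2 values were -0.00095 for Per2, -0.063 for Cry2, -0.047 for Ciart, -0.046 for Csnk1d, -0.078 for Fbxw11 and -0.016 for Dusp1. With voom, Bmal1 was at 0.050. With the mesenchyme covariate, the values were -0.0025 for Ciart, -0.13 for Bhlhe40, -0.0043 for Csnk1d, 0.074 for Csnk1e, -0.092 for Fbxl21, 0.12 for Gsk3b, -0.014 for Tsc22d3, 0.15 for Mt2, -0.36 for Nr4a1, -0.48 for Dusp1 and -0.56 for Btg2. With the olfactory covariate, they were 0.088 for Bmal1, -0.038 for Csnk1d, 0.039 for Por, -0.075 for Nr4a1, -0.33 for Dusp1 and -0.51 for Btg2. With 1 library left out, the ranges that spanned 0 were -0.034 to 0.24 for Per2, -0.24 to 0.18 for Bmal1, -0.027 to 0.10 for Cry2, -0.055 to 0.16 for Ciart, -0.015 to 0.13 for Csnk1d, -0.086 to 0.022 for Csnk1e, -0.015 to 0.051 for Fbxw11 and -0.045 to 0.29 for Dusp1.

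No paired analysis was possible because the replicate numbers of the labels do not appear in the column names, and the numbers there have only 14 in common between cKO and cHet. Counts of the members lay between 225 and 8945 per library, and the fewest were those of Per1.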
